A study of Arabidopsis thaliana with 6 samples.

Results

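Cytochrome P450 and glutathione transferase (GST) genes were followed in whole Arabidopsis thaliana Col-0 seedlings that carried 1 of 2 rice transcription factors. Members were taken by symbol from the array platform's probe table. A member was a probe set listed with a single gene whose symbol started with GST, or with CYP, a family number of at least 51 and a letter, which leaves out the cyclophilins. There were 36 such genes, 23 P450 and 13 GST genes, among 22746 tested probe sets, of which 13513 listed a single gene. Each of the 36 was read by 1 probe set, so that no choice between probe sets arose. The RefSeq table of the TAIR10.1 assembly lists 283 genes with symbols of this form, 236 of them P450 and 47 GST, and the genes that are no members were not analysed here. The P450 members are mostly of 1 subfamily, CYP71B, with 19 of 23, and the GST members mostly of the tau class (GSTU), with 11 of 13.

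Seedlings were 7 days old, untreated and collected whole at midday. The 3 groups had 2 arrays from biological replicates each. One group was untransformed wild type (WT). The other 2 were stably transformed with a FLAG fusion of SUB1A or of SUB1C under the constitutive 35S promoter, and their sample labels read 35:SUB1A and 35:SUB1C. SUB1A and SUB1C are ethylene response factor (ERF) genes of the rice Submergence1 locus, where SUB1A is known for tolerance of flooding. All groups share the Col-0 background, no empty-vector line is listed, and the number of independent transgenic lines behind each group is not stated. Differences between groups are therefore differences between these lines, and the transgene and other differences of a line cannot be told apart.

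Cytochromes P450 are haem enzymes that insert an atom of oxygen into small molecules, and plants use them to build hormones, pigments, wall polymers and defence compounds. Many members of the CYP71 clan lie in tandem arrays and act on defence metabolites or have no known substrate. Glutathione transferases join the thiol of glutathione to reactive compounds, which marks these for the vacuole. Tau and phi transferases are specific to plants and are known for induction by herbicides, oxidised lipids and hormones, and lambda transferases carry a cysteine in the active site and remove glutathione from its targets rather than adding it.

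Expression is given as the log2 level of a probe set, and a change as a difference between group means with its standard error (SE) from a linear model fitted to all 22746 probe sets. Levels of different genes are not compared, since each probe set has its own response. A gene is called, and is said to have risen or fallen or to be higher or lower, where its p adjusted by Benjamini-Hochberg over all probe sets (limma) was under 0.05. The SE of the 36 genes lay between 0.060 and 0.107, with a median of 0.076, and the number of arrays limits the precision. Correlations between the 2 arrays of a group were 0.998 in WT, 0.998 in SUB1A and 0.999 in SUB1C, across probe sets, against 0.989 to 0.996 between groups. As a check of the tissue, the root marker PYK10 read 14.05 and 14.08 in WT and the green tissue marker LHCB4.2 read 14.33 and 14.20. In whole seedlings, fewer cells of a type and less RNA per cell cannot be told apart.

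In the SUB1A line 13 of the 36 genes were called against WT, 6 higher and 7 lower, or 36.1%. Of all probe sets 20.2% were called in that comparison, 9.47% higher and 10.8% lower. Of the 23 P450 genes 4 rose and 4 fell, all 8 of them CYP71B genes, and of the 13 GST genes 2 rose and 3 fell, all 5 of the tau class. The median change of the 36 was -0.04 and the median absolute change 0.17, beside 0.01 and 0.11 over all probe sets. The 8 members with a mean level under 5, treated here as dim, included no called gene in any comparison. Few dim probe sets of any kind were called. Of all 22746 probe sets 19378 had a mean level of 5 or more. These held 4508 of the 4606 calls in SUB1A, 1067 of the 1071 in SUB1C and 2690 of the 2742 between the lines. Among probe sets at or above 5, 46.4% of the 28 members were called in SUB1A and 23.3% of all.

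The largest rise among the P450 genes was that of CYP71B23. Its log2 levels were 8.20 and 8.49 in WT, 9.20 and 9.27 in SUB1A and 8.63 and 8.65 in SUB1C. Both SUB1A arrays lay above all others, and both SUB1C arrays lay between. The rise in SUB1A was 0.89 ± 0.09, or 1.86-fold, with adjusted p = 0.000426, while the SUB1C value of 0.30 ± 0.09 did not pass, with adjusted p = 0.115. The direct difference between the lines was 0.60 ± 0.09 with adjusted p = 0.00511, so CYP71B23 was higher in the SUB1A line than in either other group.

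CYP71B24 and CYP71B26 rose in SUB1A too. CYP71B24 read 5.77 and 6.05 in WT, 6.42 and 6.52 in SUB1A and 5.71 and 5.92 in SUB1C. The SUB1A arrays stood apart, and those of SUB1C and WT overlapped. Its rise in SUB1A was 0.56 ± 0.11, or 1.47-fold, with adjusted p = 0.00767, against -0.09 ± 0.11 in SUB1C. CYP71B26 read 10.73 and 10.68 in WT, 10.97 and 11.06 in SUB1A and 10.60 and 10.63 in SUB1C. Its SUB1A arrays were the highest and its SUB1C arrays the lowest, with no overlap. Its rise in SUB1A was 0.31 ± 0.06, 1.24-fold, with adjusted p = 0.0108, which became 0.0682 without SUB1A replicate 2. Neither gene was called in SUB1C, where CYP71B26 changed by -0.09 ± 0.06 with adjusted p = 0.480.

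The fourth P450 gene to rise in SUB1A was CYP71B6, which encodes an enzyme that turns indole acetonitrile into indole carboxylic acid derivatives. It read 10.29 and 10.39 in WT, 10.54 and 10.62 in SUB1A and 10.62 and 10.51 in SUB1C, so that both lines lay above WT and overlapped each other. The change was 0.24 ± 0.07 in SUB1A with adjusted p = 0.0471, and 0.23 ± 0.07 in SUB1C with adjusted p = 0.112. Its adjusted p was the nearest to the threshold among all calls. The call ended with the replicate number as a block (adjusted p = 0.0642), with only the 2 groups compared (0.0662) and with repeated quantile normalization (0.0576). It ended also without WT replicate 1 (0.190) or 2 (0.0602), or without SUB1A replicate 1 (0.0942) or 2 (0.197).

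**Figure D1:**
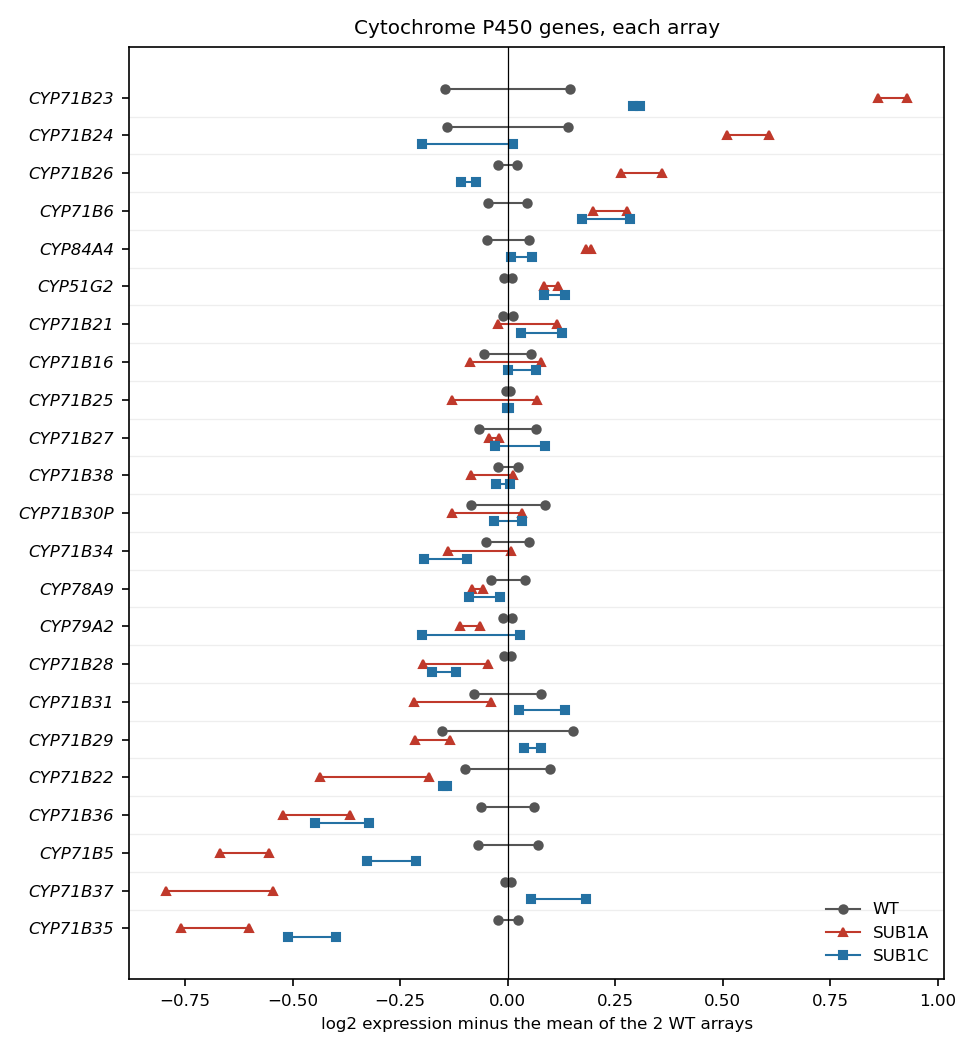
Log2 expression of the 23 P450 genes on each of the 6 arrays, as the difference from the mean of the 2 WT arrays, with a line joining the 2 arrays of a group and genes sorted by the SUB1A change. CYP71B23, at a mean of 0.89, lies farthest to the right in SUB1A, and CYP71B35, at -0.68, farthest to the left, with the SUB1C arrays of CYP71B35 also below both WT arrays.

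The 4 P450 genes that fell in SUB1A were CYP71B35, CYP71B37, CYP71B5 and CYP71B36. CYP71B35 read 7.10 and 7.15 in WT, 6.53 and 6.37 in SUB1A and 6.73 and 6.62 in SUB1C. Both lines lay below WT without overlap, SUB1A lowest. The change was -0.68 ± 0.08 in SUB1A, 1.60-fold lower with adjusted p = 0.000597, and -0.45 ± 0.08 in SUB1C with adjusted p = 0.0154. The lines did not pass the test against each other, at -0.23 ± 0.08 with adjusted p = 0.0967. CYP71B36 read 5.90 and 6.02 in WT, 5.44 and 5.59 in SUB1A and 5.64 and 5.51 in SUB1C, with both lines below WT and overlapping each other. Its falls were -0.44 ± 0.08 in SUB1A with adjusted p = 0.00649 and -0.39 ± 0.08 in SUB1C with adjusted p = 0.0371.

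CYP71B37 was called in SUB1A but not in SUB1C. It read 7.55 and 7.56 in WT, 6.76 and 7.01 in SUB1A and 7.61 and 7.74 in SUB1C, with SUB1A alone below WT. The fall in SUB1A was -0.67 ± 0.09, 1.59-fold lower with adjusted p = 0.00140, and the SUB1C value was 0.12 ± 0.09 with adjusted p = 0.519. The difference between the lines, -0.79 ± 0.09 or 1.73-fold with adjusted p = 0.00113, was the largest among the 36 genes. CYP71B5 read 8.45 and 8.59 in WT, 7.85 and 7.96 in SUB1A and 8.30 and 8.19 in SUB1C. The 3 groups did not overlap, and SUB1C lay between. CYP71B5 fell in SUB1A by 0.61 on the log2 scale (SE 0.08, adjusted p = 0.00110), while -0.27 ± 0.08 in SUB1C did not pass, with adjusted p = 0.0921. CYP71B22, at -0.31 ± 0.10 in SUB1A, fell just short with adjusted p = 0.0572, and passed with repeated quantile normalization and without SUB1A replicate 1.

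Of the 4 P450 members outside CYP71B, 0 were called by limma in any comparison. An unadjusted p under 0.05 was found for 1 in SUB1A against WT, 0 in SUB1C against WT and 1 between the lines. Over all 22746 probe sets 20.2%, 4.71% and 12.1% were called in these comparisons. The counts with an unadjusted p under 0.05 were 7427, 4681 and 6003. With 4 genes these counts cannot set the other P450 genes apart from CYP71B. CYP84A4, an enzyme of arabidopyrone synthesis from phenylpropanoids, read 6.81 and 6.91 in WT, 7.04 and 7.05 in SUB1A and 6.92 and 6.87 in SUB1C. Its SUB1A value of 0.19 ± 0.06 had adjusted p = 0.0759. CYP79A2, which makes phenylacetaldoxime for benzyl glucosinolate, had a mean level of 4.91 and gave -0.09 ± 0.08 in either line, neither called. CYP78A9, a growth regulator of fruits and seeds, changed by -0.07 ± 0.06 and -0.05 ± 0.06 in SUB1A and SUB1C. CYP51G2, a relative of the sterol demethylase gene that RefSeq lists as a transcribed pseudogene, changed by 0.10 ± 0.06 and 0.11 ± 0.06. CYP71B31, which oxidises linalool in flowers, read 4.15 to 4.50 over the 6 arrays and was thus dim.

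In the SUB1C line 6 of the 36 genes were called against WT, 3 higher and 3 lower, or 16.7%, while 4.71% of all probe sets were called, 2.84% higher and 1.87% lower. The 3 rises were tau GST genes, and the 3 falls were CYP71B35, CYP71B36 and the tau gene GSTU16. These 3 were also the genes called in both lines, each in the same direction. Both comparisons use the same WT arrays, so this count is no independent repeat. How many of all probe sets were called in both lines was not counted, so the count has no share to stand beside. The SUB1C calls of CYP71B35 and CYP71B36 both ended when any 1 of the WT or SUB1C arrays was left out, with adjusted p from 0.0564 to 0.104 for CYP71B35 and from 0.0689 to 0.191 for CYP71B36. The SUB1C call of GSTU16 ended when WT replicate 1 (adjusted p = 0.104) or either SUB1C array (0.160 for the first, 0.134 for the second) was left out.

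GSTU28 had the largest change of the 36 genes in SUB1C. It read 7.06 and 7.06 in WT, 7.28 and 7.26 in SUB1A and 8.15 and 7.86 in SUB1C. Both SUB1C arrays stood clear of the other 4. The rise was 0.94 ± 0.09, or 1.92-fold, with adjusted p = 0.00191, and passed in each alternative fit. In SUB1A its change of 0.21 ± 0.09 did not pass, with adjusted p = 0.162, and the line difference was -0.73 ± 0.09 with adjusted p = 0.00190.

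GSTU26 rose in SUB1C. It read 8.59 and 8.72 in WT, 8.57 and 8.63 in SUB1A and 9.17 and 9.15 in SUB1C, with WT and SUB1A overlapping. Its rise in SUB1C was 0.51 ± 0.07, 1.42-fold, with adjusted p = 0.00655, which became 0.0725 without SUB1C replicate 1. The SUB1A value was -0.05 ± 0.07, and the lines differed by -0.56 ± 0.07 with adjusted p = 0.00160. GSTU23 read 6.57 and 6.60 in WT, 6.75 and 6.75 in SUB1A and 6.86 and 7.02 in SUB1C, rising in SUB1C by 0.36 ± 0.07 with adjusted p = 0.0289. The 3 groups of GSTU23 did not overlap. Its call ended when any 1 of these arrays was left out: the WT arrays (adjusted p = 0.105 and 0.0783) and the SUB1C arrays (0.0720 and 0.160).

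**Figure D2:**
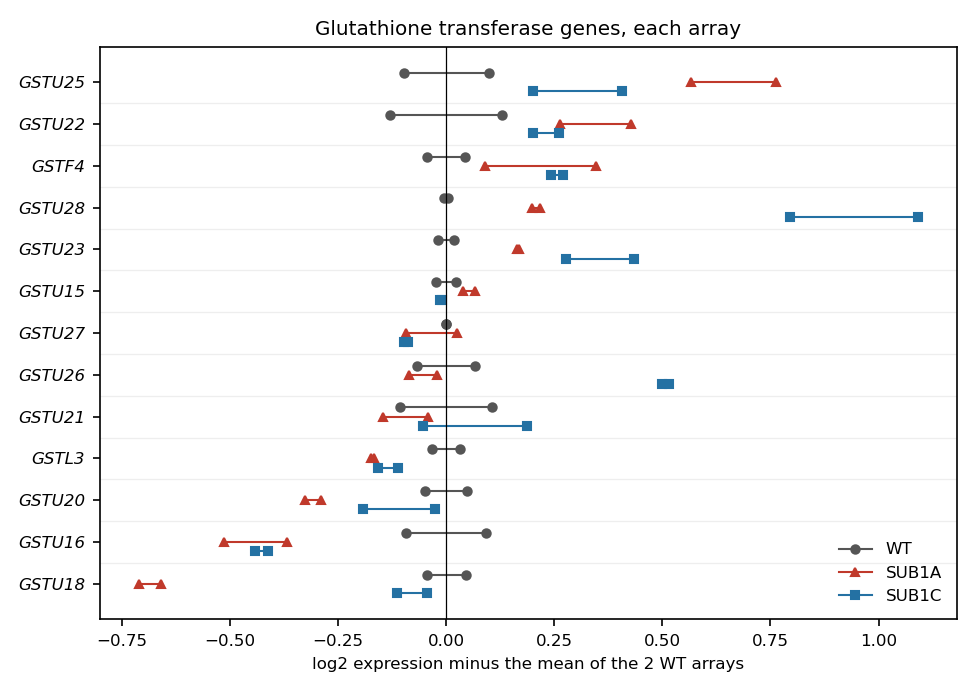
Log2 expression of the 13 GST genes on each of the 6 arrays, as the difference from the mean of the 2 WT arrays, with a line joining the 2 arrays of a group and genes sorted by the SUB1A change. GSTU28 and GSTU26, with mean SUB1C changes of 0.94 and 0.51, have SUB1C arrays to the right of all others, and GSTU18, at -0.68 in SUB1A, has SUB1A arrays to the left of all others.

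The tau GST genes called in SUB1A moved both ways. GSTU25, whose product is known to act on the explosive trinitrotoluene, read 9.10 and 9.30 in WT, 9.77 and 9.96 in SUB1A and 9.40 and 9.61 in SUB1C. The 3 groups did not overlap. GSTU25 rose in SUB1A by 0.66 ± 0.10, or 1.58-fold, with adjusted p = 0.00287, and changed in SUB1C by 0.30 ± 0.10 with adjusted p = 0.139. With the replicate number as a block it passed also in SUB1C and between the lines, and between the lines with trended moderation too. GSTU22 read 10.16 and 9.90 in WT, 10.46 and 10.29 in SUB1A and 10.29 and 10.23 in SUB1C. Both lines lay above WT, and the lower SUB1A array nearly met the higher SUB1C array. Its SUB1A rise of 0.35 ± 0.10, with adjusted p = 0.0360, leaned on single arrays, being 0.22 with adjusted p = 0.154 without WT replicate 2 and 0.26 with adjusted p = 0.194 without SUB1A replicate 1. It missed the threshold also with only the 2 groups compared, at adjusted p = 0.0616.

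GSTU18 had the largest fall in SUB1A among the 36, barely beyond that of CYP71B35. It read 9.93 and 9.84 in WT, 9.18 and 9.23 in SUB1A and 9.84 and 9.78 in SUB1C. The SUB1A arrays stood below all others and the other 2 groups overlapped. Its change was -0.68 ± 0.07, 1.61-fold lower with adjusted p = 0.000293, against -0.08 ± 0.07 in SUB1C, and the line difference of -0.61 ± 0.07 had adjusted p = 0.000914. GSTU16 fell alike in both lines, by 0.44 and 0.43 on the log2 scale (SE 0.08 each). It read 9.06 and 8.88 in WT, 8.60 and 8.46 in SUB1A and 8.56 and 8.53 in SUB1C, with adjusted p = 0.00685 in SUB1A and 0.0269 in SUB1C. All 4 arrays of the lines lay below both WT arrays, and the lines overlapped.

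GSTU20 encodes a partner protein of the jasmonate-conjugating enzyme FIN219 (JAR1). It read 13.01 and 12.92 in WT, 12.64 and 12.68 in SUB1A and 12.77 and 12.94 in SUB1C. The SUB1A arrays were the lowest, and WT and SUB1C overlapped. Its fall in SUB1A was -0.31 ± 0.08 with adjusted p = 0.0221, which became 0.113 without WT replicate 1, 0.107 without SUB1A replicate 1 and 0.0688 without SUB1A replicate 2. The phi gene GSTF4 and the lambda gene GSTL3 passed in neither line. GSTF4 changed by 0.22 ± 0.09 in SUB1A and 0.26 ± 0.09 in SUB1C, and GSTL3 by -0.17 ± 0.06 and -0.13 ± 0.06. GSTF4 passed in SUB1A without SUB1A replicate 1, and GSTL3 with trended moderation. On GSTL3, which read 12.05 and 11.99 in WT, all 4 arrays of the lines lay lower, between 11.85 and 11.91. GSTU27, at 10.36 on both WT arrays, changed by -0.03 ± 0.07 and -0.09 ± 0.07, and neither passed.

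Compared directly, 8 of the 36 genes differed between the 2 lines, 3 higher and 5 lower in SUB1A than in SUB1C. That is 22.2%, where 12.1% of all probe sets were called, 5.57% higher and 6.48% lower. The 3 higher in SUB1A were CYP71B24, CYP71B23 and CYP71B26, and the 5 lower were CYP71B37, GSTU28, GSTU18, GSTU26 and CYP71B5. CYP71B24 gave 0.65 ± 0.11 with adjusted p = 0.00616 and CYP71B26 0.40 ± 0.06 with adjusted p = 0.00550. Leaving out the first SUB1C array turned these into adjusted p = 0.0561 and 0.0532. CYP71B5 gave -0.34 ± 0.08 with adjusted p = 0.0249, which became 0.145 without SUB1A replicate 1, and 0.172 or 0.0691 without the first or the second SUB1C array. No GST gene was higher in SUB1A than in SUB1C by this test, and GSTU25 came closest, at 0.36 ± 0.10 with adjusted p = 0.0565. Every gene that differed between the lines was also called against WT in at least 1 of them, and 0 genes were called in opposite directions in the 2 lines. The comparisons share arrays, so neither count is independent of the calls above, and neither was taken over all probe sets.

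**Figure D3:**
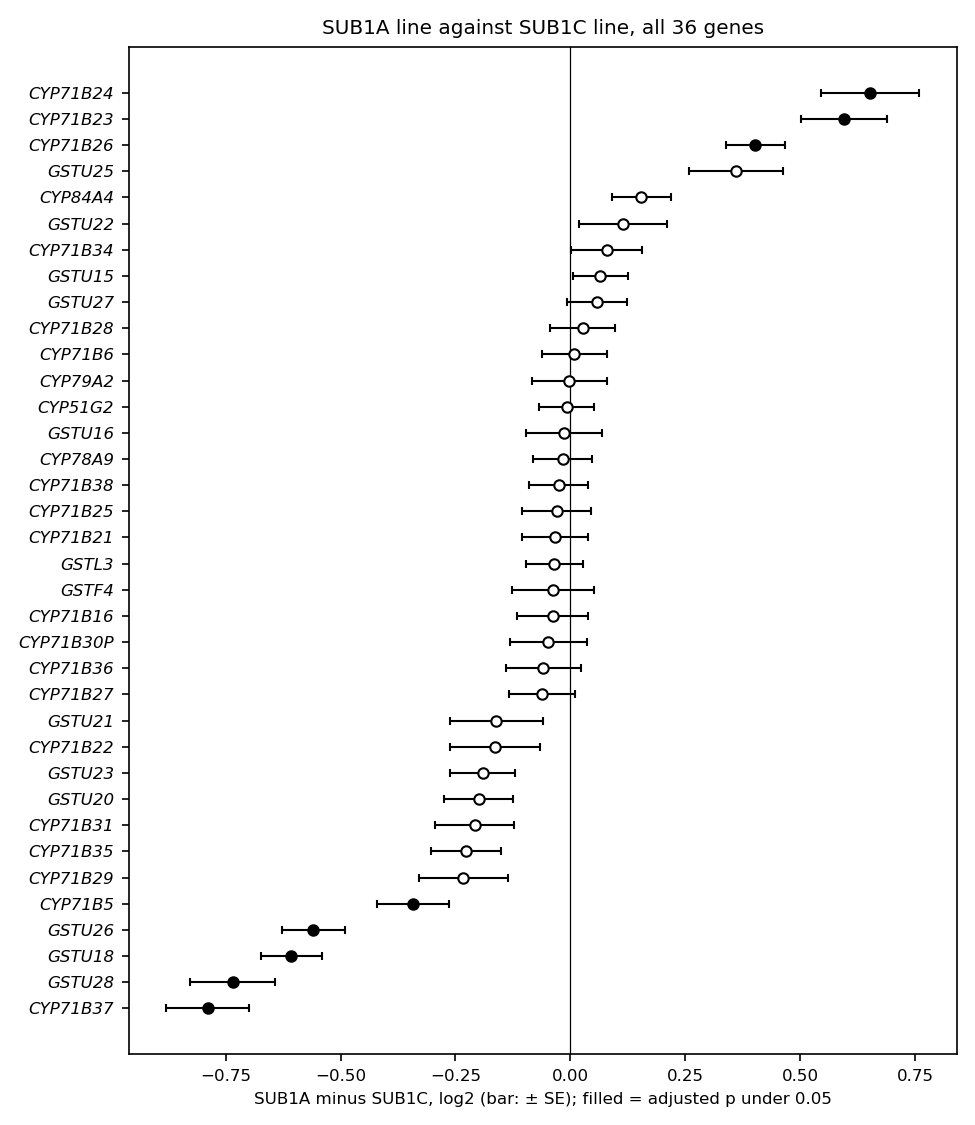
Difference of mean log2 expression, SUB1A minus SUB1C, for all 36 genes with the SE of the fit as bars; filled points have adjusted p under 0.05. The 8 filled points are at both ends, from CYP71B37 at -0.79 to CYP71B24 at 0.65.

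Many of these genes are neighbours. By gene order in RefSeq, 25 of the 36 lie in 6 runs in which at most 10 genes separate a member from the next. The longest, on chromosome 3, runs from CYP71B16 to CYP71B37 and spans 24 genes, 18 of them with P450 symbols. It holds 11 members, and the other 7 P450 genes in it had no probe set of their own listed. Within this run the changes in SUB1A were not of 1 sign. In gene order, CYP71B16, CYP71B21 and CYP71B22 were uncalled, CYP71B23 and CYP71B24 rose, CYP71B25 was uncalled, CYP71B26 rose, CYP71B34 was uncalled, and CYP71B35, CYP71B36 and CYP71B37 fell. CYP71B16, CYP71B21 and CYP71B25 were under 5 in mean level. CYP71B34, which changed by -0.07 ± 0.08 at a mean level of 8.66, was not.

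The last 3 genes of this run are direct neighbours and fell together in SUB1A, but only CYP71B35 and CYP71B36 were called in SUB1C. A probe set shared by CYP71B20 and CYP71B19 in the same run, outside the members because it lists both genes, read 9.90 and 9.79 in WT, 10.11 and 10.31 in SUB1A and 9.74 and 9.74 in SUB1C. It rose in SUB1A by 0.36 ± 0.08 with adjusted p = 0.0146, against -0.10 ± 0.08 in SUB1C. None of the 6 genes without a P450 symbol inside the run was measured by a single-gene probe set. Of the 2 measured genes among the 3 on each side of it, 0 were called by limma in any comparison, AT3G26350 being nearest with 0.18 and adjusted p = 0.0699 in SUB1A.

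**Figure D4:**
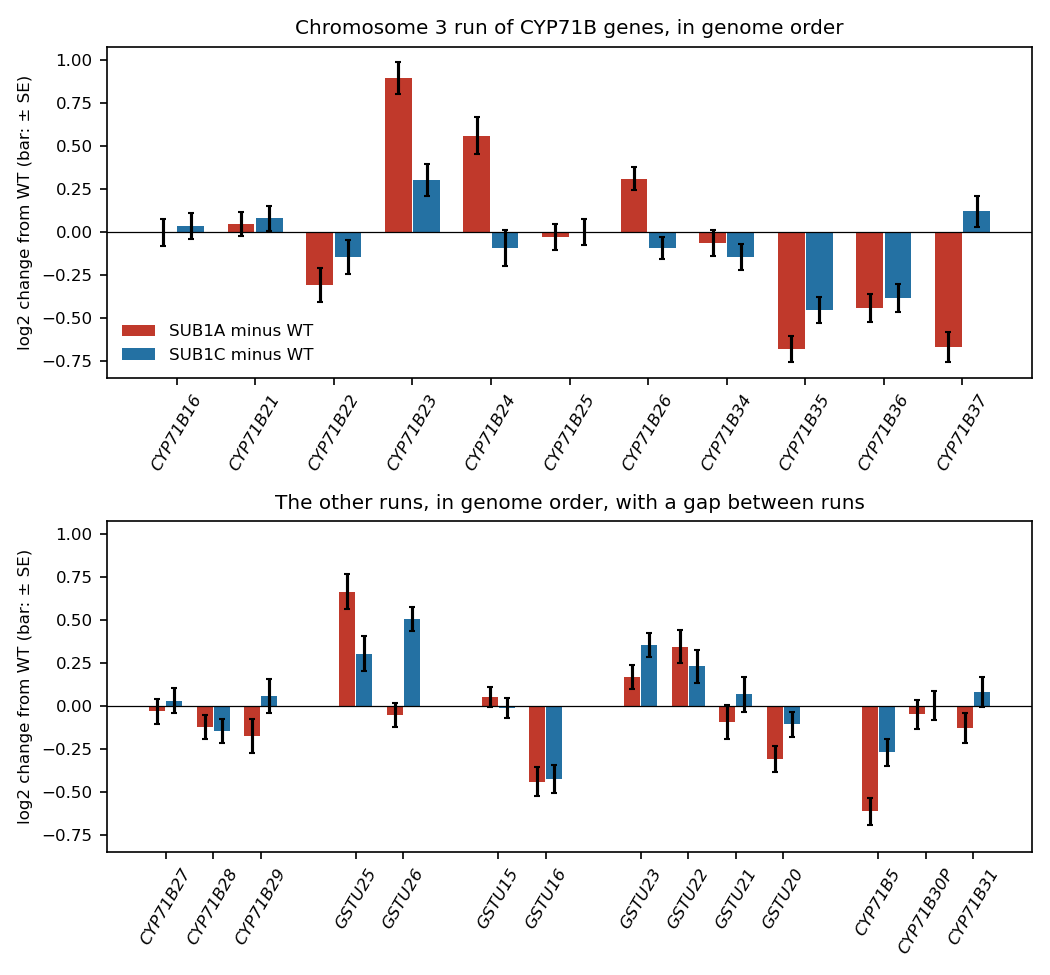
Changes from WT (log2, bars ± SE of the fit) in SUB1A and SUB1C for the 25 members that lie in runs of neighbouring genes, in genome order along the x axis, the long CYP71B run above and the other 5 runs below. In the upper panel the SUB1A bars of CYP71B23, CYP71B24 and CYP71B26 point up and those of CYP71B35 to CYP71B37 point down, and in the lower panel the SUB1A bar of GSTU25 is at 0.66 and the SUB1C bar of its neighbour GSTU26 at 0.51.

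The other runs are short. GSTU25 and GSTU26 on chromosome 1 are direct neighbours, and GSTU25 was called in SUB1A alone and GSTU26 in SUB1C alone. Their differences between the lines had opposite signs, 0.36 ± 0.10 and -0.56 ± 0.07, of which only the second passed. In the run of GSTU23, GSTU22, GSTU21 and GSTU20, also on chromosome 1, GSTU22 rose and GSTU20 fell in SUB1A, GSTU23 rose in SUB1C and GSTU21 was called in neither. In the run of GSTU15 and GSTU16, GSTU15 was under 5 and uncalled. CYP71B5 fell beside CYP71B30P and CYP71B31, both under 5. The run of CYP71B27, CYP71B28 and CYP71B29 had 0 called genes in limma, with CYP71B28 at -0.12 ± 0.07 and CYP71B29 at -0.18 ± 0.10 in SUB1A. CYP71B27, which RefSeq lists as a transcribed pseudogene, was dim at a mean level of 4.80. Among the 3 genes on each side of the 6 runs, 17 were measured by a single-gene probe set in all. Of these 17, 1 was called in SUB1A against WT and in SUB1C against WT, AT1G13130 at 0.52 and 0.39, and 0 between the lines by limma. The shares over all probe sets were 20.2%, 4.71% and 12.1% in these comparisons.

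Genes that work beside these enzymes were looked up in lists of glutathione, peroxidase and glucosinolate genes. A gene is said to be measured where a probe set lists it alone, and 8730 of the 22746 tested probe sets list no gene. The lists of P450 electron donors, ABCC vacuole pumps, TGA regulators and OPR reductases had 0 genes measured in this sense. Their genes may be read by probe sets without a listed gene and were not examined. Counts in the other lists are of very few genes and stand beside 20.2% of all probe sets called in SUB1A and 4.71% in SUB1C. For glutathione synthesis and recycling, with 2 of 9 listed symbols measured, 1 rose in SUB1A and 0 changed in SUB1C. The glutathione reductase gene GR1 rose by 0.23 ± 0.06 with adjusted p = 0.0294, while the gene listed as GR changed by -0.20 ± 0.06 with adjusted p = 0.0526. For peroxidation, with 3 of 24 measured, 1 rose and 1 fell in SUB1A and 0 were called in SUB1C. The stromal ascorbate peroxidase gene SAPX rose by 0.30 ± 0.07 with adjusted p = 0.0198, and the thylakoid form TAPX fell by 0.50 on the log2 scale (SE 0.07, adjusted p = 0.00135). Of the glucosinolate partners, with 3 of 24 measured, 1 rose and 1 fell in SUB1A and 1 fell in SUB1C. The glucosyltransferase gene UGT74B1 rose by 0.26 ± 0.07 in SUB1A, with adjusted p = 0.0255. BCAT4, an aminotransferase gene of methionine chain elongation, fell by 1.02 in SUB1A and by 0.49 in SUB1C on the log2 scale.

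Some listed tissue markers were called as well. Their counts are of few genes, beside 9.47% of all probe sets higher in SUB1A, 2.84% in SUB1C and 5.57% in SUB1A against SUB1C. The shares lower were 10.8%, 1.87% and 6.48%. Of 9 listed root markers 3 were measured, and 2 rose in each line, EXPA7 and EXPA18 by 0.29 each in SUB1A and by 0.78 and 0.75 in SUB1C. PYK10 was called in neither line, and EXPA7 and EXPA18 were lower in SUB1A than in SUB1C, by -0.49 and -0.46. The mean level of the 3 root markers was 9.64 to 9.73 in WT, 9.91 to 9.93 in SUB1A and 10.18 to 10.27 in SUB1C. Of 8 embryo and dry seed markers 3 were measured, with mean levels of 5.42 to 5.45 in WT, 9.01 to 9.04 in SUB1A and 6.08 to 6.12 in SUB1C, 3 of which rose in SUB1A and 1 in SUB1C. All 3 were also higher in SUB1A than in SUB1C, M17 by 3.70. M17 was under 5 in WT and SUB1C and above 8 in SUB1A. Of 9 green tissue markers 1 was measured, LHCB4.2, which fell in SUB1A by 0.35 on the log2 scale. A change of tissue make-up and a change of expression within a tissue cannot be told apart in these markers. Any part of the marker changes in the P450 and GST changes was not tested.

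In all, 20 of the 36 genes were called in no comparison, 15 P450 and 5 GST genes, and 12 of these 20 had a mean level of 5 or more. In SUB1A against WT 18 of the 36 had an unadjusted p under 0.05 and 13 passed the adjustment, and in SUB1C against WT these counts were 12 and 6. Over all 22746 probe sets the counts were 7427 and 4606 in SUB1A against WT, and 4681 and 1071 in SUB1C against WT. How many of all probe sets were called in no comparison was not counted. Among rows that the naming rule left out, CYP718, a P450 gene whose symbol has no letter after its number, changed by -0.05 ± 0.07 in SUB1A and 0.03 ± 0.07 in SUB1C. ATGSTF13, a phi GST gene whose symbol starts differently, changed by 0.16 ± 0.11 and 0.24 ± 0.11, and neither was called.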

How the data were processed

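RNA of 6 whole-seedling samples was hybridised to Affymetrix ATH1 arrays. The deposited table holds log2 values, 1 per probe set; RMA is the tool listed by the authors, per the submitters' processing notes, without a version. Of 22810 rows, 64 controls were left out. Genes were named from the platform's probe table, and loci and gene order from RefSeq (TAIR10.1), where all 36 members matched. No coordinates are printed.

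All 6 arrays were fitted with limma 3.58.1 in R 4.3.3 (lmFit, eBayes; 3 residual and 5.37 prior degrees of freedom), two-sided, with Benjamini-Hochberg adjustment over 22746 probe sets and a threshold of 0.05. The code was checked on simulated data. By rule, the text names up to 8 called rises and 8 called falls per comparison, the called or brightest member of each role list, the brightest 3 of each family, and members called in both lines; any other gene was named after its values were seen. Members, gene lists and tests were chosen with earlier results of these data known. Alternatives are a replicate block, 2-group fits, repeated quantile normalization, centring on the median, leaving out dim or cross-hybridising probe sets, averaging a gene's probe sets, trended or robust moderation, a threshold of 0.01 and leaving out each array. The p-values set a difference of group means against the spread between these arrays, which eBayes moderates towards that of all tested probe sets. Planned promoter motif counts were not run.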

Additional observations from a re-analysis of the deposited data

How the results depend on the processing

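No called change reversed. Of 27 called changes under 16 alternatives, 384 of 432 values stayed called in the same direction, 48 lost the call, and 15 changes passed under all 16. At a threshold of 0.01 the counts became 3 GST genes for SUB1A against WT, 0 P450 and 2 GST genes for SUB1C against WT, and they stayed within 1.5 times elsewhere. Leaving out 1 array in turn gave 6 to 8 P450 and 4 GST genes in SUB1A against WT, 0 to 2 P450 and 1 to 4 GST genes in SUB1C against WT, and 2 to 5 P450 and 3 GST genes between the lines. For SUB1C against WT, 0 P450 genes were left without WT replicate 1 or either SUB1C replicate, 1 GST gene without SUB1C replicate 1, and without WT replicate 2 the 1 P450 call was CYP71B23, which the full fit did not call. With the replicate block the counts for SUB1A against WT were 7 P450 and 5 GST genes, for SUB1C against WT 2 and 5, and between lines 5 and 4; CYP71B6 was lost in the first comparison and GSTU25 gained in the others. Deviations of same-numbered arrays had correlations of -0.01, 0.04 and 0.02, so no pattern of deviations shared across probe sets was seen. A shift equal in all probe sets would not show in a correlation, and single genes may differ. Such values cannot decide whether same-numbered samples were grown or handled together. GSTU25 read higher on replicate 2 than on replicate 1 in each group, a kind of difference that the block takes out of the spread. Its levels were 9.10 and 9.30 in WT, 9.77 and 9.96 in SUB1A and 9.40 and 9.61 in SUB1C. CYP71B6 was higher on replicate 2 in WT and SUB1A but lower in SUB1C. The cause of the changed calls under the block was not tested. Each gene had 1 probe set, none of a cross-hybridising type, so those alternatives left the log2 values of the members as they were. They changed the other probe sets, and through these the moderation of the SE and the adjustment of p. A fit without 1 array kept all 3 groups with 2 residual degrees of freedom in place of 3; its lone array adds nothing to the spread and is assumed to vary like the others. Leaving out an array of the group not compared is therefore the same fit as the 2 groups alone (54 of 54 values equal), and 4 of the 48 losses are such repeats: CYP71B6 and GSTU22, the latter taking the GST count in SUB1A from 5 to 4. How many of all probe sets were called under each alternative was not counted. The changed counts of members therefore cannot be set against a change over all probe sets. A count that stayed the same may also hold other genes. With repeated quantile normalization CYP71B22 took the place of CYP71B6 in SUB1A against WT. Precision is limited by 2 arrays per group.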
